A study of Homo sapiens with 6 samples.

Results

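The ATF4 and unfolded protein response genes were 40 genes chosen by function, of which 39 were measured among 18417 genes of the array. They comprise the ATF4 and CHOP axis, the stress sensors with XBP1 and ATF6, the chaperones and folding enzymes of the endoplasmic reticulum (ER), its degradation machinery, and 5 aminoacyl-tRNA synthetases. The rule uses measured values only to take the brightest probe set of a gene, but the members were chosen with earlier results of these data known. PDIA3 was left without a value, because both of its probe sets also carry the symbol of its pseudogene PDIA3P1. The cells were HCT116, a widely used human colorectal carcinoma line, profiled on 3 arrays of the parental line and 3 arrays of a derived mutant line with altered DNA methylation. All cells grew in McCoy's 5A medium with serum and antibiotics, and no treatment is given for either group. Neither the mutated gene nor the number of clones or cultures behind the mutant arrays is given in the labels, so the mutation and any other feature of the mutant line cannot be told apart.

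Cells sense unfolded protein in the ER through PERK, IRE1 and ATF6, and sense missing amino acids through GCN2. PERK and GCN2 phosphorylate the initiation factor eIF2, which lowers overall translation but favours translation of ATF4, and ATF4 then induces genes for amino acid synthesis, transport and tRNA charging, and at stronger stress CHOP. IRE1 splices the XBP1 mRNA, and spliced XBP1 and cleaved ATF6 induce chaperones and degradation factors of the ER. Much of this control acts on translation, splicing and cleavage, which mRNA levels from arrays do not read.

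Known response elements in the promoters are shown first for 6 members whose mRNA changed and whose promoter holds a match, so that the regulatory letters can be read beside the values. The sequences are RefSeq promoters on GRCh38.p14, each the 250 bases before the annotated start of transcription, 5′ to 3′ on the gene's strand. Capitals mark every match within these bases, on either strand, to the C/EBP-ATF response element core TGATGNAAN, the ER stress response element (CCAAT, then any 9 bases, then CCACG) or the cyclic AMP response element (CRE) TGACGTCA. The first 3 hold the C/EBP-ATF core, the next 2 the ER stress element and the last the CRE. ASNS lies at chr7:97872409-97872658, minus strand, CHAC1 at chr15:40953221-40953470, plus strand, and AARS1 at chr16:70289507-70289756, minus strand. HSPA5 lies at chr9:125241344-125241593, minus strand, HSP90B1 at chr12:103930160-103930409, plus strand, and PPP1R15A at chr19:48872171-48872420, plus strand.
ASNS: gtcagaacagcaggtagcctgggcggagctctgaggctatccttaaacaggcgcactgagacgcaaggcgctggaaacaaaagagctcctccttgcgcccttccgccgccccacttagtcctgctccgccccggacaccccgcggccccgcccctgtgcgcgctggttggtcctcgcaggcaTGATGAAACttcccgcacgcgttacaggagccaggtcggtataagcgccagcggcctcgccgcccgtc
CHAC1: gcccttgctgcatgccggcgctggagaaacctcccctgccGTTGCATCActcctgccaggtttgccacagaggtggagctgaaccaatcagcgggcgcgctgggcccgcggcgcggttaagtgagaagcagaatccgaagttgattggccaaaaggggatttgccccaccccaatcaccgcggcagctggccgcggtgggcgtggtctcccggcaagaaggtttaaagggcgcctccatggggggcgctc
AARS1: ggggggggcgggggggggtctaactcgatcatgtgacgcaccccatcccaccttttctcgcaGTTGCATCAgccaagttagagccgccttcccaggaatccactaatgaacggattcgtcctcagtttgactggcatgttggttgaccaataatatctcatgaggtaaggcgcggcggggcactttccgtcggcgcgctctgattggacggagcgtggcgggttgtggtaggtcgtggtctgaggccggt
HSPA5: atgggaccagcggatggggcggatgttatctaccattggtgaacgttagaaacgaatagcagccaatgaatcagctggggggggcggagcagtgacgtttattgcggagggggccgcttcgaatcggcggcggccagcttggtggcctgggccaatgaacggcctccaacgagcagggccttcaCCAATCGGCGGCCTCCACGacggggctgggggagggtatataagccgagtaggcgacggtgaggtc
HSP90B1: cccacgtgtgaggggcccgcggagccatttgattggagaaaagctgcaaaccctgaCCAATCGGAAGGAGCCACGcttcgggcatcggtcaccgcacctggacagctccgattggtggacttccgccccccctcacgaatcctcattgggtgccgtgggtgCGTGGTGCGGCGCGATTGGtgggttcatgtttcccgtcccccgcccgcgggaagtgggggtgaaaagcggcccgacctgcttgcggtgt
PPP1R15A: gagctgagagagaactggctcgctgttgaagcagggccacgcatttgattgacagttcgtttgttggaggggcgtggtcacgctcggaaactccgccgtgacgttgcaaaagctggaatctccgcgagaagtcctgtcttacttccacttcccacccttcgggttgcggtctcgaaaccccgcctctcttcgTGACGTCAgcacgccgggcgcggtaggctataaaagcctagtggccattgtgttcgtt

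A search of 300-base windows, from 250 bases before to 50 after the start, covered 38 members and 22199 protein-coding RefSeq promoters. The C/EBP-ATF core, the composite site that ATF4 and C/EBP proteins can bind together, occurred in 6 of 38 members (15.8%) and in 2.69% of the protein-coding promoters. It was found in 4 of the 10 members that fell, in 0 of the 3 that rose and in 2 of 25 others, ATF3 and HERPUD1. Sites outside these windows were not searched, and the split by direction of change was not tested. Besides the 3 promoters printed above, NARS1 held TGATGCAAC at position 14 after its start. CHAC1 and AARS1 carry the same 9 letters on the opposite strand, as does HERPUD1, which did not pass the test (difference 0.00). ASNS carried TGATGAAAC at -68. The ER stress response element, which NF-Y together with ATF6 or XBP1 can bind, occurred in 6 members (15.8%) against 0.104% of protein-coding promoters. Those 6 were HSPA5, which rose, HSP90B1 with a pair of matches, which fell, and CANX, CALR, XBP1 and CRELD2, which did not pass the test. The shorter ER stress response element II (ATTGG, any base, CCACG) was in HYOU1, HERPUD1 and SDF2L1 (7.89%, against 0.0676%). HYOU1 alone among the members also held the unfolded protein response element TGACGTGG (2.63%, against 0.761%). The CRE was found in PPP1R15A alone among the members (2.63%), near its share of protein-coding promoters (2.26%). A match describes letters only, and promoter activity or factor binding was not measured. The members were chosen as genes of these responses, so their higher shares of elements other than the CRE are not independent support for such sites.

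Across the members, 10 of 39 genes were lower and 3 higher in the mutant at an adjusted p under 0.05 (limma, Benjamini-Hochberg over 33297 probe sets), and 26 did not pass. Over all 18417 genes, 25.9% passed, 14.6% higher and 11.3% lower, against 33.3%, 7.69% and 25.6% of the members. In these bulk samples, fewer cells with a transcript and less of it per cell cannot be told apart. The median change of the members was -0.05 on the log2 scale, and that of all genes was 0.00. The 3 arrays of each group did not overlap for 23 members, 16 with the mutant below and 7 with the mutant above; over all genes 45.8% did not overlap, 20.5% below and 25.3% above. A change of at least 1.5-fold was reached by 5 of the called members, ASNS, NARS1, CHAC1, ATF4 and ATF5, and by 7.22% of all genes with the call. Requiring a change above 1.2-fold in the test left ASNS, CHAC1, NARS1 and ATF5 called, with ATF4 at an adjusted p of 0.0506. All values below are log2 expression after robust multi-array averaging (RMA), and a difference is mutant minus parental unless a fold is named.

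**Figure D1:**
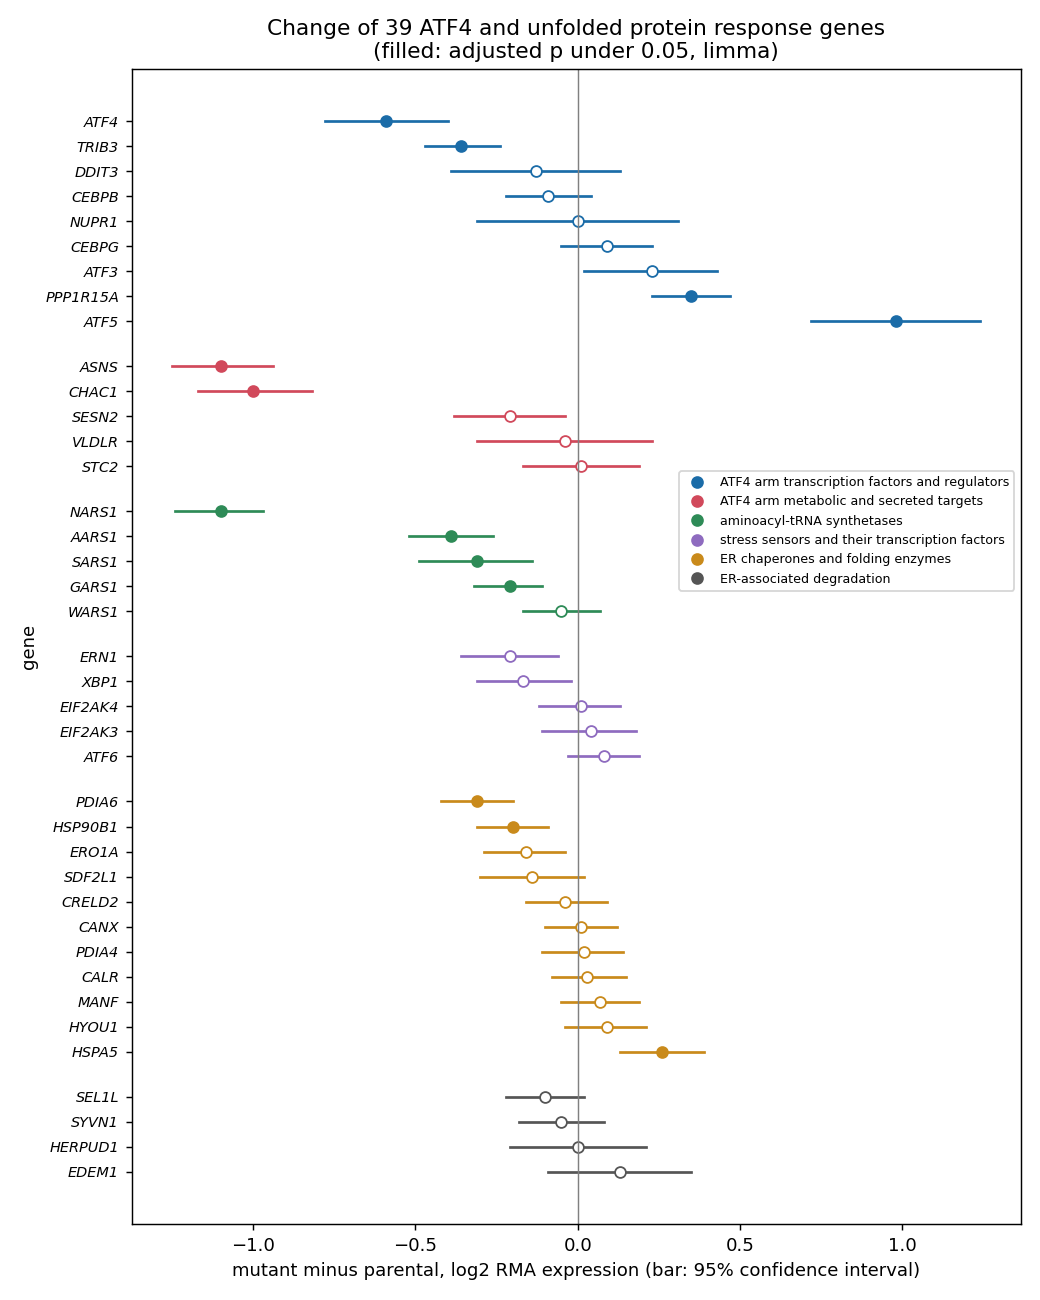
Difference between mutant and parental cells in log2 expression (x axis) for the 39 measured members (y axis), grouped and coloured by role, with 95% confidence intervals from limma as bars and filled points at an adjusted p under 0.05. The whole intervals of ASNS, CHAC1 and NARS1 lie at or below -0.82, ATF5 lies at 0.98, and all ER degradation genes and stress sensors have open points.

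Of 9 transcription factors and regulators of the ATF4 arm, 2 fell (ATF4 and TRIB3), 2 rose (ATF5 and PPP1R15A) and 5 did not pass. The shares were 22.2% lower and 22.2% higher, against 11.3% and 14.6% of all genes. So few genes do not separate these shares from those of all genes. ATF4, the factor at the head of the arm (probe set 8180337), read 11.70, 11.83 and 11.82 in the parental arrays and 11.29, 11.24 and 11.06 in the mutant arrays. Every mutant array lay below every parental array, with a difference of -0.59 (95% interval -0.78 to -0.40, adjusted p = 0.0038). Its second, dimmer probe set, 8073148, also fell, from 9.83 ± 0.13 to 9.46 ± 0.02 (SD, n = 3 each; difference -0.37, adjusted p = 0.0192).

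ATF5, a related factor that is induced under the same stresses and is translated through similar upstream reading frames, rose. Its parental arrays (probe set 8030557) read 8.81, 8.74 and 8.74 and its mutant arrays 9.52, 9.78 and 9.92. The mutant arrays were all higher, by 1.97-fold (difference 0.98, 95% interval 0.72 to 1.24, adjusted p = 0.00189), although they spread more widely than the parental ones, with an SD of 0.20 against 0.04.

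TRIB3, a pseudokinase that ATF4 and CHOP induce and that restrains ATF4, fell from 9.21, 9.18 and 9.15 to 8.80, 8.81 and 8.87. The groups were separate and the decrease was 1.28-fold (difference -0.36, adjusted p = 0.00434). PPP1R15A, also called GADD34, directs a phosphatase to eIF2 and so reverses the translational block. It rose from 8.90, 8.90 and 8.94 to 9.20, 9.29 and 9.30, a 1.28-fold increase with no overlap (difference 0.35, adjusted p = 0.0055). ATF4 and TRIB3 were therefore lower while ATF5 and PPP1R15A were higher in the same arrays.

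DDIT3, which encodes CHOP, the stress factor linked to cell death, read 8.34, 8.37 and 8.68 in parental and 8.33, 8.24 and 8.44 in mutant arrays. These ranges overlapped, and the interval of the difference, -0.39 to 0.13, left room for a small change either way (adjusted p = 0.518). ATF3, a repressor induced by ATF4, differed by 0.23 with the mutant arrays all above the parental ones, but did not pass (adjusted p = 0.133). CEBPB (-0.09) and CEBPG (0.09), bZIP partners of ATF4, and the stress-induced chromatin protein gene NUPR1 (0.00) overlapped between groups, with adjusted p-values of 0.348, 0.399 and 1.

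**Figure D2:**
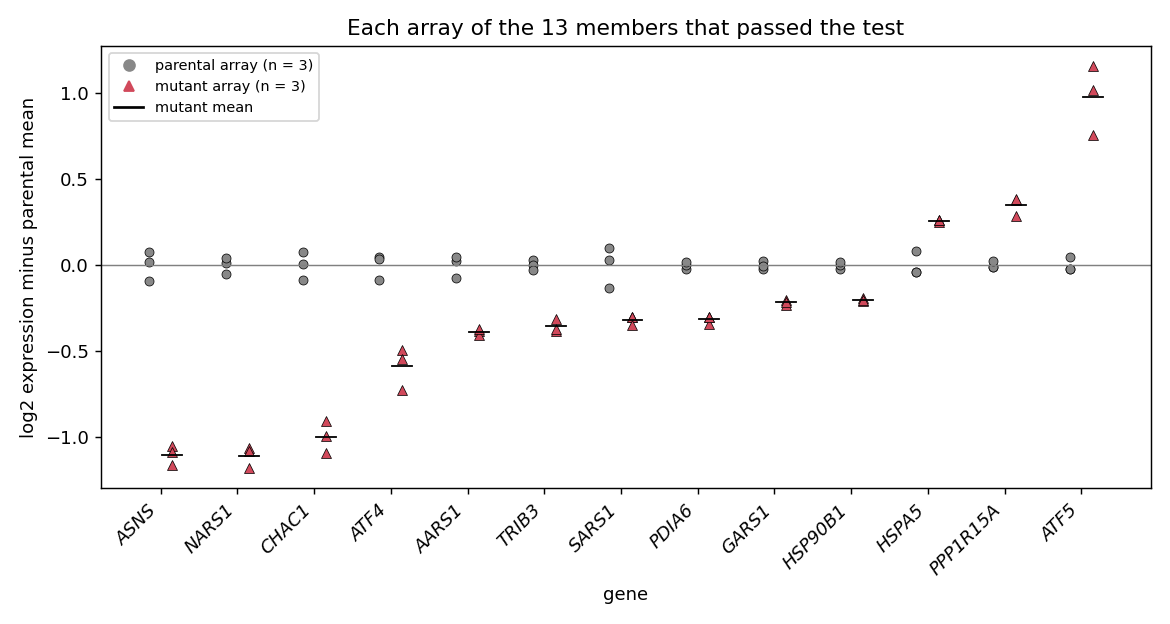
Log2 expression of each array minus the parental mean (y axis) for the 13 members that passed the test (x axis), with circles for the 3 parental arrays, triangles for the 3 mutant arrays and a line at the mutant mean. The mutant arrays lie outside the parental range for each of these genes, and the mutant spread is widest for ATF5 (SD 0.20).

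Among the metabolic and secreted targets of ATF4, ASNS and CHAC1 fell and the other 3 genes did not pass (40% lower, against 11.3% of all genes). This count is too small to be read as a departure from that share. ASNS, asparagine synthetase, the enzyme that makes asparagine from aspartate and glutamine (probe set 8141150), read 9.88, 9.99 and 10.05 in parental arrays and 8.92, 8.81 and 8.89 in mutant arrays. The mutant arrays were all lower, 2.14-fold on average (difference -1.10, 95% interval -1.25 to -0.94, adjusted p = 0.000215). CHAC1, a glutathione-degrading enzyme (probe set 7982868), fell from 8.63, 8.79 and 8.72 to 7.81, 7.72 and 7.62. That decrease was 2.00-fold with separate groups (95% interval of the difference -1.17 to -0.82, adjusted p = 0.000418).

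SESN2, which encodes the leucine-sensing inhibitor of mTORC1 sestrin 2, differed by -0.21, with all mutant arrays below the parental ones and an adjusted p of 0.101. VLDLR, a lipoprotein receptor induced through PERK and ATF4, gave -0.04 (95% interval -0.31 to 0.23) from dim signals of 5.22 to 5.62. STC2, a secreted glycoprotein of the stress response, gave 0.01 (95% interval -0.17 to 0.19). Averaged over these 5 genes, the mutant arrays stood at -0.46, -0.47 and -0.47 relative to the parental mean and the parental arrays between -0.02 and 0.01, an average carried mainly by ASNS and CHAC1.

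Of the 5 aminoacyl-tRNA synthetases, which attach amino acids to their tRNAs, 4 fell (11.3% of all genes did). This count describes few genes, and the set was not tested. NARS1, for asparagine (probe set 8023481), had parental values of 11.84, 11.90 and 11.93 and mutant values of 10.71, 10.83 and 10.81. The mutant arrays were all lower, by 2.15-fold (difference -1.10, 95% interval -1.24 to -0.97, adjusted p = 0.000137). Both the enzyme that makes asparagine and the enzyme that charges it to tRNA thus gave a difference of -1.10. NARS1 lies on chromosome 18, where its 50 nearest measured genes had a median difference of -0.05, with 6 called higher and 11 lower; their part in its decrease was not tested.

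AARS1, for alanine, fell from 11.32, 11.42 and 11.44 to 11.01, 10.99 and 11.02, a separate and smaller decrease of 1.31-fold (difference -0.39, adjusted p = 0.00454). SARS1, for serine, read 10.66, 10.82 and 10.89 in parental and 10.49, 10.49 and 10.44 in mutant arrays, 1.24-fold lower (difference -0.31, adjusted p = 0.0271). GARS1, for glycine, fell from 12.25, 12.20 and 12.22 to 12.02, 11.99 and 12.01, 1.16-fold (difference -0.21, adjusted p = 0.0212). The mutant arrays lay below the parental ones for all 3. WARS1, for tryptophan, overlapped between groups, with a difference of -0.05 (95% interval -0.17 to 0.07, adjusted p = 0.587).

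The calls of SARS1 and GARS1 did not hold with fewer arrays. GARS1 lost its call whichever array was left out (adjusted p = 0.0578 to 0.0831), while its difference stayed between -0.22 and -0.20. SARS1 kept its call only without parental replicate 1 (adjusted p = 0.0145), and had adjusted p-values up to 0.0938 without the others. With 1 array fewer, the number of genes called among all 18417 also dropped, from 4773 to between 3198 and 3627.

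None of the stress sensors or their transcription factors passed the test (0 of 5 by limma, against 25.9% of all genes). With so few genes, this count is not read as a departure from that share. The unadjusted limma p was under 0.05 for ERN1 and XBP1. Of 19 alternative settings, ERN1 passed in 5 and XBP1 in 1. ERN1, which encodes the kinase and RNase IRE1, read 8.67, 8.58 and 8.58 in parental and 8.41, 8.32 and 8.48 in mutant arrays. The groups were separate, with a difference of -0.21 (95% interval -0.36 to -0.06, adjusted p = 0.0702). ERN1 lies on chromosome 17, where its 50 nearest measured genes had a median of -0.14, with 18 called lower and 0 higher, and their part in its value was not tested.

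XBP1, whose splicing a single level per gene does not show, read 10.45, 10.48 and 10.58 in parental and 10.39, 10.30 and 10.32 in mutant arrays, all mutant arrays below (difference -0.17, adjusted p = 0.113). EIF2AK3, which encodes PERK, had parental values of 8.58, 8.67 and 8.75 and 8.70 in each mutant array, a difference of 0.04 (95% interval -0.11 to 0.18). ATF6 read 11.02, 11.05 and 11.08 against 11.10, 11.16 and 11.13, with the mutant arrays just above (difference 0.08, 95% interval -0.03 to 0.19, adjusted p = 0.329). EIF2AK4, which encodes GCN2, differed by 0.01 (95% interval -0.12 to 0.13). For PERK, GCN2 and ATF6 the intervals leave out a change of 1.5-fold or more, on the scale of these arrays.

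Of 11 measured ER chaperones and folding enzymes, 2 fell, 1 rose and 8 did not pass, so that 27.3% were called, near the 25.9% of all genes. HSPA5, which encodes BiP, the chaperone that holds the sensors inactive, rose from 13.09, 13.09 and 13.21 to 13.38, 13.39 and 13.39. The mutant arrays were all higher, by 1.19-fold (difference 0.26, 95% interval 0.13 to 0.39, adjusted p = 0.0203). HSPA5 lies on chromosome 9, where its 50 neighbours had a median of 0.22, with 22 called higher and 0 lower, which leaves 0.04 between it and them. The part of that regional shift in the value was not tested.

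HSP90B1, which encodes the ER form of HSP90, GRP94, fell from 13.22, 13.24 and 13.26 to 13.05, 13.03 and 13.04, a decrease of 1.15-fold (difference -0.20, adjusted p = 0.0257). PDIA6, a protein disulfide isomerase that also binds the sensors, fell from 11.51, 11.53 and 11.55 to 11.23, 11.19 and 11.23, or 1.24-fold (difference -0.31, adjusted p = 0.0056). Both had all mutant arrays below the parental ones, and their neighbours had medians of 0.01 and -0.07. The call of HSP90B1 was lost whichever array was left out (adjusted p = 0.0541 to 0.0938), and that of HSPA5 held only without parental replicate 3 (adjusted p = 0.0235; up to 0.0809 without the others).

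The other 8 differed by -0.16 to 0.09. ERO1A, the oxidase that recharges the disulfide isomerases, came nearest to the threshold (-0.16, adjusted p = 0.0792), with the mutant arrays below the parental ones. The lectin chaperones CALR (0.03) and CANX (0.01) and the isomerase PDIA4 (0.02) overlapped between groups, with 95% intervals of -0.08 to 0.15, -0.10 to 0.12 and -0.11 to 0.14. HYOU1, a nucleotide exchange factor for BiP, gave 0.09, MANF, a secreted ER protein, 0.07, CRELD2 gave -0.04 and SDF2L1, a partner of ER J-proteins, -0.14. CALR, CANX, CRELD2, HYOU1 and SDF2L1 are those of the 8 whose promoters hold an ER stress element.

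ER-associated degradation, which returns misfolded proteins to the proteasome, had 0 of 4 members past the threshold by limma, against 25.9% of all genes. So few genes do not separate this count from that share. In the same test 0 had an unadjusted p under 0.05, and 0 were called in any alternative setting. HERPUD1, a scaffold of the degradation complex, differed by 0.00 (95% interval -0.21 to 0.21). SYVN1, the ubiquitin ligase HRD1, gave -0.05 and its partner SEL1L -0.10, with the mutant arrays of SEL1L all below. EDEM1, which directs glycoproteins to the complex, gave 0.13 (95% interval -0.09 to 0.35). Over all 26 members that did not pass, differences ran from -0.21 to 0.23, their intervals from -0.39 to 0.43, and 5 had an unadjusted p under 0.05.

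Other genes of the same pathways were counted from 4 lists drawn up by function, with earlier results of these data known. Of 32 measured genes of the ATF4 and amino acid response, 17 fell and 5 rose (53.1% and 15.6%, against 11.3% and 14.6% of all genes), with a median of -0.27. The 5 higher calls became 3 without any one of the mutant arrays or without parental replicate 2. The largest decreases were of SLC7A11, the cystine transporter that supplies glutathione synthesis (-1.51, adjusted p = 7.13e-05), PHGDH, the first enzyme of serine synthesis (-1.12, adjusted p = 7.34e-05), and the stress-induced gene NIBAN1 (-1.10, adjusted p = 0.000113, to dim mutant signals of 5.85 to 5.91). In SLC7A11 the parental arrays read 10.71, 10.79 and 10.90 and the mutant arrays 9.30, 9.31 and 9.24, far outside each other's range. The increases were led by EIF2AK2, the RNA-activated eIF2 kinase PKR, which interferon induces (0.89, adjusted p = 0.000269), the transcription factor KLF4 (0.73, adjusted p = 0.00183) and GADD45A, also a target of p53 (0.48, adjusted p = 0.0129). KLF4 lies on chromosome 9 with a neighbour median of 0.14. Named after their values were seen, PSPH, the last enzyme of serine synthesis (0.47), and EIF2S1, the eIF2 subunit that the kinases phosphorylate (0.25), were the other increases. Likewise SLC38A2, an amino acid transporter, and EIF4EBP1, an inhibitor of translation, fell by 0.96 and 0.86. As a mean over these 32 genes, the mutant arrays stood at -0.29, -0.29 and -0.27, with the parental arrays between -0.03 and 0.03.

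The other cytosolic tRNA synthetases and their scaffold proteins split by gene, with 5 of 16 lower, 1 higher and a median of -0.01. The lower and higher shares were 31.2% and 6.25%, against 11.3% and 14.6% of all genes. MARS1, for methionine, fell from 11.44, 11.46 and 11.47 to 10.31, 10.37 and 10.45 (difference -1.08, adjusted p = 0.000136). YARS1, for tyrosine, changed by -0.60 (adjusted p = 0.000862) and CARS1, for cysteine, by -0.48 (adjusted p = 0.00136). TARS1 (-0.40) and VARS1 (-0.44), for threonine and valine, were the other decreases and are named after their values were seen, while 10 genes did not pass. TARS3, a second threonine enzyme, was higher by 0.26 (adjusted p = 0.0129), a call lost without mutant replicate 2 (adjusted p = 0.0573) or parental replicate 2 (adjusted p = 0.0583).

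Other ER folding and secretory pathway genes went both ways, with 9 of 43 higher, 8 lower (20.9% and 18.6%, against 14.6% and 11.3% of all genes) and a median of 0.00. The 8 lower calls became 5 without mutant replicate 1 or 2 or without parental replicate 2 or 3. Increases were led by CLGN, a calnexin relative known from testis (1.02, adjusted p = 0.000541, from dim parental signals of 5.45 to 5.69), CREB3L1, a membrane-bound transcription factor of the ATF6 type (0.66, adjusted p = 0.00568), and CDNF, a relative of MANF (0.49, adjusted p = 0.0164; 0.0591 without parental replicate 1 and 0.0569 without parental replicate 3). The largest decreases were of CREB3L2, another such factor (-0.64, adjusted p = 0.000536), SSR3, a subunit of the translocon-associated complex (-0.51, adjusted p = 0.00129), and the disulfide isomerase P4HB (-0.50, adjusted p = 0.000962). P4HB lies on chromosome 17, where its 50 neighbours had a median of -0.29 with 28 called lower and 1 higher, and their part in its decrease was not tested.

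Among other ER-associated degradation genes, 7 of 25 were higher and 3 lower (28% and 12%, against 14.6% and 11.3% of all genes), with a median of 0.06. With 1 array fewer there were 2 to 5 higher and 1 to 3 lower. The higher calls numbered 3 without any one of the mutant arrays or parental replicate 1 and 2 without parental replicate 2, and the lower calls 1 when any array but parental replicate 1 was left out. UBXN4, a membrane anchor of the p97 ATPase, rose by 0.54 (adjusted p = 0.000968), the mannosidase gene MAN1B1 by 0.37 (adjusted p = 0.00696) and NGLY1, which removes glycans from extracted proteins, by 0.35 (adjusted p = 0.0128). MAN1B1 lies on chromosome 9 with a neighbour median of 0.15, 19 of 50 called higher and 0 lower. NGLY1 had an adjusted p of 0.0514 without mutant replicate 2 and also without parental replicate 2. DDRGK1, of the UFMylation ligase at the ER, changed by -0.38 (adjusted p = 0.0121). NPLOC4, a cofactor of p97, gave -0.24 (adjusted p = 0.0463) and SEL1L3, a relative of SEL1L, -0.23 (adjusted p = 0.032). Both lost their calls when any array but parental replicate 1 was left out (adjusted p up to 0.145 and 0.113), and NPLOC4 lies on chromosome 17 with a neighbour median of -0.19.

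**Figure D3:**
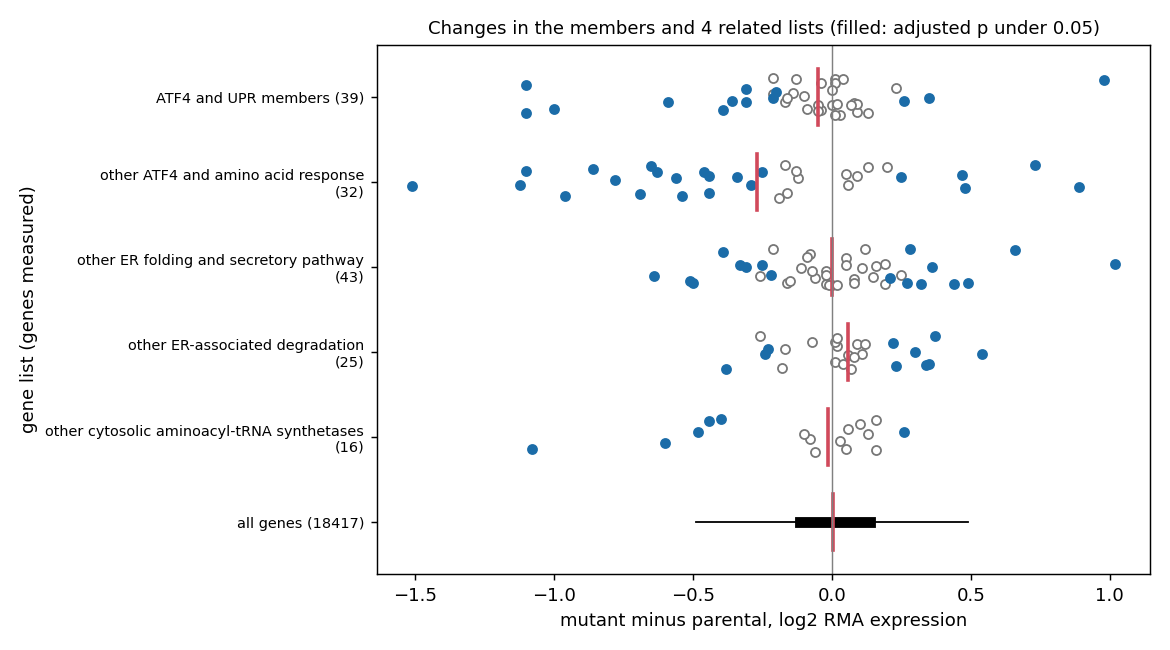
Differences between mutant and parental cells in log2 expression (x axis) for the members and 4 related lists (y axis), 1 point per gene, filled at an adjusted p under 0.05, with red lines at medians; for all 18417 genes the thick bar spans the 25th to 75th percentile (-0.11 to 0.14) and the thin line the 5th to 95th (-0.49 to 0.49). The ATF4 and amino acid response list has its median at -0.27, and the other lists have theirs between -0.05 and 0.06.

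The position of the members on the chromosomes was set beside their changes, because the neighbours of some members shifted as a group. The 50 nearest measured genes, or 34 to 47 near a chromosome end, had medians between -0.14 and 0.22 around the 39 members. HSPA5 and ERN1 had the extreme values among them. Neighbours were taken at any signal level, so dim genes, whose changes are compressed, count in these medians. Around ASNS, CHAC1, ATF4 and ATF5 the neighbour medians were -0.02, 0.05, 0.06 and -0.02, so that these members differed from their surroundings by -1.07, -1.05, -0.64 and 1.00.

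**Figure D4:**
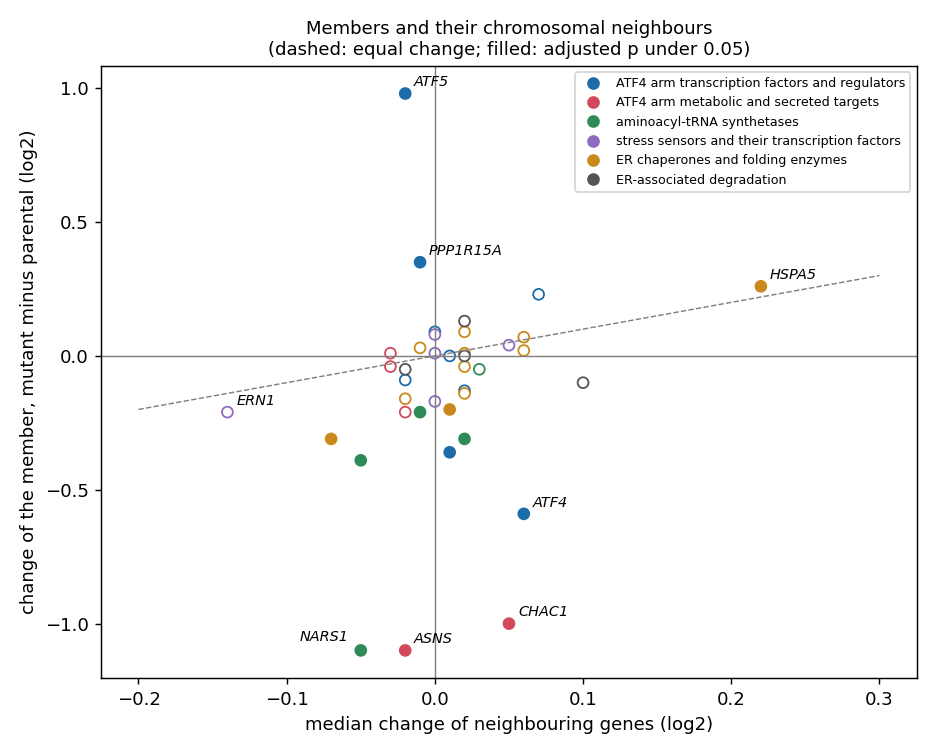
Change of each member (y axis, log2) against the median change of its neighbouring genes in chromosome order (x axis, log2, up to 25 genes on each side), coloured by role, filled at an adjusted p under 0.05, with a dashed line of equal change. HSPA5 (0.22 and 0.26) and ERN1 (-0.14 and -0.21) lie near the line, whereas ASNS, CHAC1, NARS1, ATF4 and ATF5 lie far from it.

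Across the series, arrays of a group correlated at 0.995 to 0.996 over probe sets and arrays of different groups at 0.988 to 0.989, and array medians lay between 6.88 and 6.93. Of 10 markers of colorectal epithelium, 7 lay above the array median on every array of each group, and their mean ran from 9.33 to 9.36 in parental and from 8.95 to 9.08 in mutant arrays, with KRT8, KRT18, KRT19 and CDH1 lower by the test (-0.53, -0.88, -0.47 and -1.36; named after their values were seen). Leukocyte (4 measured), fibroblast (5) and endothelial (5) markers had 0, 1 (COL1A1) and 1 (CLDN5) such genes in each group, and PDGFRB, a fibroblast marker, was higher by 0.27. No leukocyte marker exceeded 6.08 on any array.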

How the data were processed

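The deposited values are log2 expression per probe set, for which the submitters' processing notes name RMA and Partek, their versions and the genome build being not given in the sources used here. The RMA method equalises the arrays' distributions, which removes differences in total RNA per cell, and compresses dim signals. Per the labels' protocols, 100 ng of total RNA was labelled. Values were used as deposited. Precision is limited by the number of arrays.

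Of 33297 probe sets, 19460 have 1 gene symbol, 1754 several and 12083 none in the platform annotation; 19429 of the first were found by gene ID in RefSeq (GRCh38.p14), used for symbols and gene order. Each gene took its single-symbol probe set with the highest mean over 6 arrays. Differences were tested with limma 3.58.1 (lmFit, eBayes, two-sided; R 4.3.3) over all probe sets, with Benjamini-Hochberg adjustment; residual and prior degrees of freedom were 4 and 2.16. Python 3.11.15 served for summaries. Alternatives covered normalization, filters on dim probe sets, the variance model, array weights, a minimum fold, the probe sets used, the replicate block and each array left out. In data simulated with the spread of these 33297 probe sets, 200 were given a change. Of these, 61.2% of 1.5-fold, 77.6% of 2-fold and 98.5% of 4-fold changes were recovered, with 8 false calls among the rest. In the real data 6166 probe sets passed, so the adjustment was stricter in the simulation and its rates may not carry over.

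All members are accounted for, with array values for those called and for ATF4, DDIT3, XBP1, ATF6, ERN1, EIF2AK3 and HSPA5; up to 3 called genes per direction were named from each list. The members and lists were chosen with earlier results of these data known. Whether the arrays come from separate cultures is not stated, and the p-values reflect the spread between these arrays alone, possibly a technical one.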

Additional observations from a re-analysis of the deposited data

How the results depend on the processing

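The 39 members and 22 genes of the related lists were run under 19 alternatives. VLDLR was run under 18, being too dim for the filter at a mean log2 of 6. Of these 61 genes, 0 reversed a call, and genes named after their values were seen were not run. ATF5, ASNS, CHAC1 and NARS1 kept theirs in all 19, the other 9 called members lost theirs in at least 1, and 4 uncalled members, SESN2, ERN1, XBP1 and ERO1A, gained one in some. A further 8 uncalled members, all near 0, changed sign. Requiring a fold of 1.2 in the test, which is stricter by construction, left 1743 probe sets (from 6166), 1442 genes, 1 member higher and 3 lower. With it the ATF4 list had 2 higher and 10 lower, ER folding 1 and 3, ER degradation 1 and 0, and tRNA synthetases 0 and 3. Leaving out each array gave 4037 to 4644 probe sets, 3198 to 3627 genes, 2 to 3 members higher and 7 to 8 lower. The lists then had 3 to 4 higher and 15 to 16 lower (ATF4), 6 to 7 and 5 to 7 (ER folding), 2 to 5 and 1 to 3 (ER degradation), and 0 to 1 and 5 to 5 (tRNA synthetases).

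Lower ER degradation genes numbered 5 with an intensity trend, with a mean log2 of at least 5 or 6, and with single-symbol probe sets only, and 1 after median centring. Higher tRNA synthetases numbered 4 with the trend, 2 and 3 with these filters, and 2 with single-symbol probe sets, the ordinary linear model or quantile normalization again. Same-numbered arrays of the groups correlated in their deviations at 0.043, -0.013 and 0.003, so no pairing by number was seen over all probe sets. A weak pairing, or one limited to few genes, would not show in these values. With the replicate block the members had 2 higher and 7 lower, the ATF4 list 3 higher, ER folding 5 lower, ER degradation 0 lower and tRNA synthetases 0 higher. The causes of these moves were not tested. Changes of dim genes such as VLDLR are limited by signal over background.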
